A study of Mus musculus with 2 samples.

Results

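The genes Fos, Fosb, Fosl1, Fosl2, Jun, Junb, Jund, Atf3, Egr1 and Egr2 encode the AP-1 and early growth response transcription factors, and were examined in differentiating mouse embryonic stem cells. They were taken by symbol, as all probe sets that name one of them alone, which gave 15 probe sets for 10 genes out of 34945 such probe sets for 18193 genes. The compared samples were PGK12.1 cells after 15 days of differentiation as embryoid bodies (aggregates in which stem cells form mixed tissues) and undifferentiated PGK12.1 cells at day 0. PGK12.1 is a female embryonic stem cell line from blastocysts of a cross between a 129 female and a (129 X PGK)F1 male, and both samples come from this single line. Stem cells were kept with leukemia inhibitory factor on MEF feeders (mouse embryonic fibroblasts), which were depleted on gelatin before collection and before differentiation. Total RNA of each sample was measured on 1 Affymetrix array, in order to follow expression of the X chromosome during differentiation.

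AP-1 is a dimer of basic leucine zipper proteins, usually of a Fos protein with a Jun protein, and Jun proteins can also pair with ATF proteins such as Atf3. Most of these genes are immediate-early genes: serum, growth factors, stress and mechanical strain induce them within minutes, through MAP kinases and through serum response factor and CREB-type factors bound at their promoters. The zinc finger factors Egr1 and Egr2 are induced by many of the same signals and are restrained by the NAB co-repressors, and Egr2 is also known for its roles in the hindbrain and in Schwann cells.

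Each condition has 1 array, so differences carry neither a replicate error nor a test and are described by size. Signals are linear intensities already scaled by the authors to a common level, with a mean after trimming 2% from each tail of 250 on both arrays. The log2 difference is log2(signal + 16) at day 15 minus that in undifferentiated cells, and a gene was called at 2-fold on this scale. A gene with several probe sets was represented by the one with the highest mean. The highest of 15 bacterial control probe sets without target read 35.6, and where one signal was dimmer than this the fold is a lower bound, computed against 35.6. Levels of different probe sets are not comparable with each other. The labels were checked against cell type markers. The 8 stem cell markers, which include Pou5f1, Nanog and Sox2, summed to a signal of 31093 at day 15 and 53139 in undifferentiated cells. At day 15, 4 of the 8 were at least 2-fold lower, beside 7.56% of all 18193 genes, and none was 2-fold higher. The lowest of the 8 read 1226 at day 15, so stem cell transcripts were still well above the controls. Spread between probe sets of the same gene was 0.53 as an SD of the log2 difference, which does not include variation between cultures.

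At day 15, 7 of the 10 genes were higher by at least 2-fold, 3 lay within 2-fold and none was lower by 2-fold or more. Among all 11960 genes above the expression filter (mean signal of about 36.5), 16.5% were at least 2-fold higher and 8.41% at least 2-fold lower. Past 4-fold on the log2(signal + 16) scale were Fos, Fosl2, Jun and Egr1, against 6.54% of all genes. Fosl1 fell short on that scale, with a log2 difference of 1.80, although its plain signal ratio was 4.38. The median log2 difference of the 10 genes was 1.65, beside 0.00052 for all genes above the filter. All 10 passed the filter, but Fosb, Fosl2 and Egr2 did so with an undifferentiated signal below 35.6, which favours a difference. Without these 3 genes, 5 of the other 7 passed 2-fold upwards, with a median of 1.80. The share of all genes under that same condition was not computed, and the 16.5% does not stand in for it. In bulk RNA a larger share of cells with a transcript and more of it per cell cannot be told apart.

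**Figure D1:**
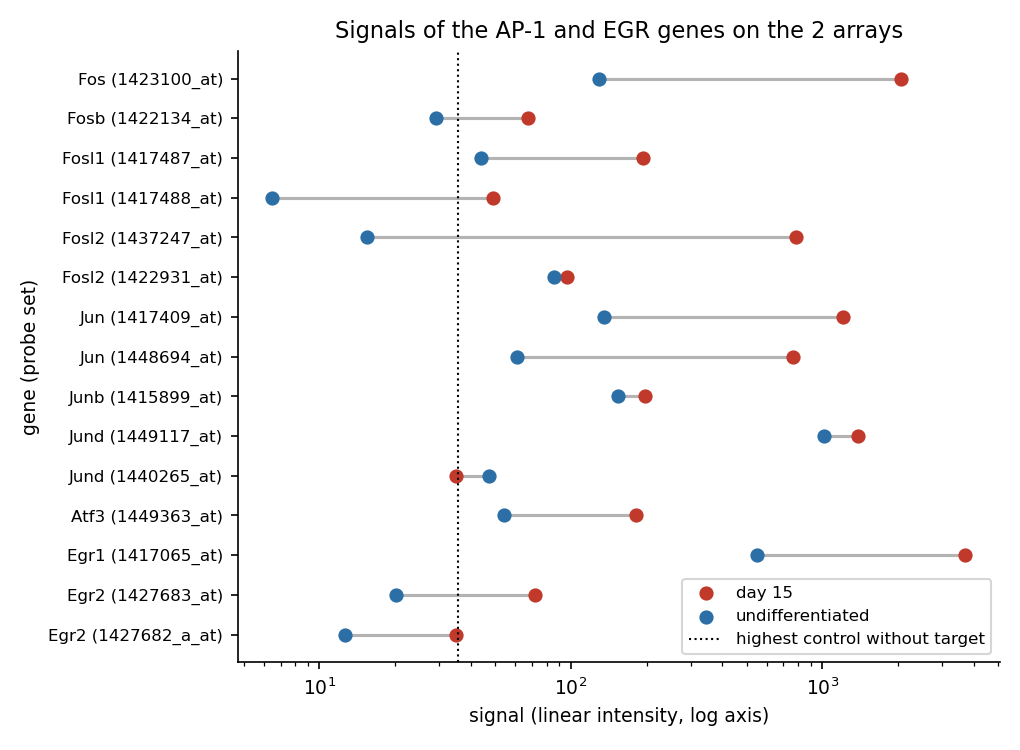
Signal of each of the 15 probe sets (rows) at day 15 (red) and in undifferentiated cells (blue), 1 array each, on a log axis, with the highest control without target (35.6) as a dotted line. The day 15 point lies to the right of the undifferentiated point for every probe set except the dim one of Jund, and the pair of Fosl2 probe sets differ in the distance between points.

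Promoter sequence is shown for Fos, Jun and Atf3, which passed 2-fold upwards at day 15, and for Junb, which did not. RefSeq promoter windows of assembly GRCm38.p6 were at hand for 8 of the 10 genes, and the 250 bases upstream of the annotated start were searched on both strands. The sequences are chr12:85473640-85473889 (plus strand) for Fos and, on the minus strand, chr4:95052223-95052472 for Jun, chr1:191183334-191183583 for Atf3 and chr8:84978749-84978998 for Junb. Egr2 has 5 annotated windows, and 30 bases of one of them, chr10:67537793-67537822 (plus strand), are shown for the pair of matches it holds. Capitals mark the matches described below the sequences.
Fos: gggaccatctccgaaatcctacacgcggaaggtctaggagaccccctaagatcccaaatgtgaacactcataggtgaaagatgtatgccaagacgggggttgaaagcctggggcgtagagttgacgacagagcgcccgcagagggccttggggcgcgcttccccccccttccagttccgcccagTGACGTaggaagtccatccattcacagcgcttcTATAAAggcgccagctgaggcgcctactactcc
Jun: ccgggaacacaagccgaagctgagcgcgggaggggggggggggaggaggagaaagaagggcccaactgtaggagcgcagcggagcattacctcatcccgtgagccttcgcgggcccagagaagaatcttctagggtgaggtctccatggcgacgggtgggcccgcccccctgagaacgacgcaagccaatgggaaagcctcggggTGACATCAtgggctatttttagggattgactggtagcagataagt
Atf3: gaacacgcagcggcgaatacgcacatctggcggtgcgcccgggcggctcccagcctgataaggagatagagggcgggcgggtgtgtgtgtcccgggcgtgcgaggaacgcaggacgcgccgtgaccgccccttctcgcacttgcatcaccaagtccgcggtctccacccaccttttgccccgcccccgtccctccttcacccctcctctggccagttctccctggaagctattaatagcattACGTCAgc
Junb: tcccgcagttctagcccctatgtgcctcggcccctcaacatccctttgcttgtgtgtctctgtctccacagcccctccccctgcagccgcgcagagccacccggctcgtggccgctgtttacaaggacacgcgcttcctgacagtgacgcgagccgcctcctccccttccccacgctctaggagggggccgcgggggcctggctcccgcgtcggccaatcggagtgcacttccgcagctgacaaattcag
Egr2: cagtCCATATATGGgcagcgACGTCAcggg
The cyclic AMP response element core TGACGT, the sequence that CREB and ATF proteins bind, was present in 3 of the 8 genes (Fos, Atf3 and Egr2), and in 7.29% of the 27025 genes with RefSeq windows, each gene counted once if any of its windows held it. Its match lay 66 to 61 bases before the start of Fos and 8 to 3 bases before that of Atf3. In Atf3 and in Egr2 the letters read as the reverse complement, ACGTCA. The full palindrome TGACGTCA, which contains that core, was in none of the 8 and in 1.77% of all these genes. The related letters TGACATCA were found in Jun, 45 to 38 bases before its start, and in 3.41% of all genes. A CArG box, the element read by serum response factor, was in Egr2 and in 1.62% of all genes. The AP-1 element TGANTCA was in none of the 8 and in 7.82% of all genes. The EGR element GCGNGGGCG was in Fosb and Fosl2 and in 5.33% of all genes, and the letters TATAAA were in Fos, 33 to 28 bases before its start, and in 14.3% of all genes. None of these motifs was in the Junb or Jund sequence, while Fosb, also within 2-fold, held the EGR match. Whether matches go with the differences was not tested. A match describes the letters only, and elements farther upstream were outside these windows.

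Within the Fos subfamily, whose proteins must pair with a Jun partner to bind DNA well, 3 of 4 genes passed 2-fold upwards at day 15. Fos, which encodes the first described member, had a signal of 2060 at day 15 and 129 in undifferentiated cells (probe set 1423100_at). The day 15 signal was thus 16-fold higher, a log2 difference of 3.84 that ranked Fos 163 from the top of 11960 genes. Both Fos signals lay above the controls without target.

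Fosl1, which encodes FRA1, read 192.6 at day 15 and 44.0 in undifferentiated cells, which is 4.38-fold higher (log2 difference 1.80). Its other probe set, below the filter, read 48.8 at day 15 and 6.50 in undifferentiated cells. Both Fosl1 probe sets were therefore higher at day 15, from an undifferentiated level near or under the controls. Fosb, one of whose splice forms lacks part of the activation domain, read 67.6 at day 15 and 29.1 in undifferentiated cells. Its log2 difference of 0.89 fell short of 2-fold, although the ratio of its signals was at least 1.90.

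The probe sets of Fosl2, which encodes FRA2, gave different answers. The probe set that represents it (1437247_at) read 782 at day 15 and 15.4 in undifferentiated cells, at least 22-fold higher and a log2 difference of 4.67, rank 77 of 11960 genes. The other (1422931_at), also above the filter, read 96.4 at day 15 and 85.3 in undifferentiated cells, a log2 difference of 0.15. The largest difference of the family thus rests on 1 of 2 probe sets, and averaging them gives 2.41. Which transcripts each probe set detects was not tested.

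The Jun subfamily split by gene. Jun, the main partner of Fos and itself an AP-1 target in many cells, had 1206 at day 15 and 136 in undifferentiated cells, 8.90-fold higher (log2 difference 3.01, rank 321). Its other probe set (1448694_at) read 767 at day 15 and 61.1 in undifferentiated cells, 12.5-fold higher. Both Jun probe sets thus lay past 8-fold in the same direction. Junb, which can oppose Jun in cell growth, read 197.8 at day 15 and 153.7 in undifferentiated cells, a ratio of 1.29 and a log2 difference of 0.33. Jund, which is expressed broadly and is the least inducible of the Jun genes, read 1381 at day 15 and 1016 in undifferentiated cells, a ratio of 1.36 and a log2 difference of 0.44. A dim Jund probe set went the other way, with 35.0 at day 15 and 47.3 in undifferentiated cells. Neither gene kept a clear difference: rescaling the arrays on the spiked-in hybridization controls, under which the median of all genes became -0.36, put Junb at -0.024 and Jund at 0.051.

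Atf3, a stress-induced bZIP factor that represses many of its targets as a homodimer, had 182 at day 15 and 54.3 in undifferentiated cells, which is 3.35-fold higher (log2 difference 1.49). It has a single probe set here, and both signals lay above the controls. Egr1, the zinc finger factor that serum and strain induce along with Fos, had 3694 at day 15 and 548.5 in undifferentiated cells, 6.73-fold higher (log2 difference 2.72, rank 423). Egr1 was already well above the controls before differentiation. Egr2 read 72.0 at day 15 and 20.2 in undifferentiated cells, at least 2.02-fold higher (log2 difference 1.28). Its other probe set read 35.0 at day 15 and 12.6 in undifferentiated cells, both below the controls, so Egr2 remained dim at day 15. A pseudocount of 64 gave a log2 difference of 0.69 and scaling on the hybridization controls gave 0.97, both under the 2-fold call.

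**Figure D2:**
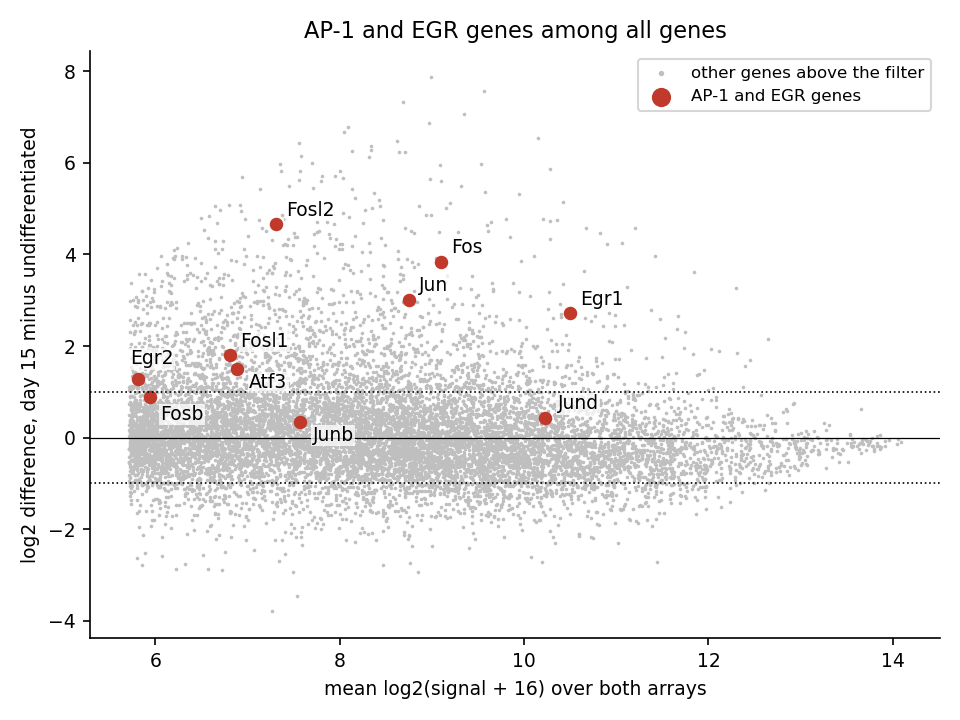
Log2 difference of day 15 minus undifferentiated (vertical axis) against the mean log2(signal + 16) over both arrays (horizontal axis) for 11960 genes above the filter, 1 point per gene, with the 10 AP-1 and EGR genes in red and 2-fold as dotted lines. Fosl2, Fos, Jun and Egr1 lie well above the upper line at different levels, Egr2, Atf3 and Fosl1 lie above it, and Fosb, Jund and Junb lie between the lines.

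The genes of the NAB co-repressors, which bind Egr proteins, were higher as well. Nab1 read 733.7 at day 15 and 109.2 in undifferentiated cells, 6.72-fold higher, with a further probe set above the filter in the same direction (log2 differences 2.58 and 3.24). Nab2, which is also counted among the EGR target genes below, read 495.1 at day 15 and 190.9 in undifferentiated cells, 2.59-fold higher. Both co-repressor genes were thus past 2-fold. Egr3 (63.0 at day 15 and 15.8 in undifferentiated cells) and Egr4 (44.0 at day 15 and 12.4 in undifferentiated cells) lay below the filter. Both were below the controls without target in undifferentiated cells and somewhat above them at day 15. Their log2 differences were 1.31 for Egr3, with its other probe set at 0.13, and 1.08 for Egr4.

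Other bZIP genes whose products pair with Fos or Jun proteins differed widely in the size of their difference. Of 12 measured, 9 passed the filter, with a median log2 difference of 0.80. Of these 9, 4 passed 2-fold upwards and none downwards, beside 16.5% and 8.41% of all genes. Maf, a large Maf factor with a transactivation domain, read 904.9 at day 15 and 5.50 in undifferentiated cells, at least 25.4-fold higher. Maf and Atf7 passed the filter with an undifferentiated signal below 35.6, which favours a difference. Batf3, below the filter, was at -1.08 (10.2 at day 15 and 39.2 in undifferentiated cells). Atf7 and Batf3 were named after their values were seen. Jdp2, a repressor that dimerizes with Jun proteins, read 1512 at day 15 and 86.4 in undifferentiated cells, 17.5-fold higher. The small Maf gene Maff was 2.995-fold higher (log2 difference 1.29) and Atf5 2.21-fold higher (1.09). The Jdp2 difference, 3.90, was close in size to that of Fos.

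Genes for the inputs of these promoters passed 2-fold upwards in a share near that of all genes (16.5%). Of 15 measured genes above the filter for serum response factor, its cofactors, CREB factors and MAP kinases, 2 were at least 2-fold higher, none lower and 13 within 2-fold, as were 8979 of all 11960 genes. Their median was 0.23, which turned to -0.089 with scaling on the hybridization controls, under which the median of all genes was -0.36. The list holds 3 ternary complex factors, ETS proteins that sit with serum response factor on Fos and Egr1 promoters, and they did not share a direction. Elk3 read 1065 at day 15 and 46.5 in undifferentiated cells, 22.9-fold higher, and its other 2 probe sets above the filter were higher too (lowest log2 difference 1.73). Elk4 read 346.2 at day 15 and 93.0 in undifferentiated cells, 3.72-fold higher, with a further probe set above the filter at 0.67. Dim Elk4 probe sets below the filter went the other way, at -0.85 and -0.55. Elk1, named after its values were seen, read 117.8 at day 15 and 181.7 in undifferentiated cells, a log2 difference of -0.56, with its other probe set above the filter at -0.67. Next in size were the coactivator gene Mrtfb at 0.84, with a dim probe set at -0.19, and the p38 kinase gene Mapk14 at -0.67, with another probe set at 1.14. Transcript levels of kinases say nothing of their activity, which was not measured.

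Immediate-early genes outside the family did not move as a block. Of 32 above the filter, 11 passed 2-fold upwards and 3 downwards, beside 16.5% and 8.41% of all genes. The median of the 32 was 0.28, beside 0.00052 for all genes. With scaling on the hybridization controls it became -0.063, beside -0.36 for all genes. The prostaglandin synthase gene Ptgs2 read 1920 at day 15 and 18.2 in undifferentiated cells, at least 53.9-fold higher. The matricellular gene Ccn1 was 16.5-fold higher, the stress factor gene Ddit3 15.2-fold and Ier5 9.27-fold. On the lower side were Sgk1, a serum-induced kinase gene (921 at day 15 and 4563 in undifferentiated cells), Klf2 (1125 at day 15 and 3338 in undifferentiated cells) and Gadd45b (151.4 at day 15 and 333.5 in undifferentiated cells), which were named after their values were seen. Other Gadd45b probe sets above the filter lay within 2-fold, at log2 differences of -0.48 and -0.43. The remaining 18 of the 32 lay within 2-fold.

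Genes known as targets of these factors held large differences beside genes within 2-fold. Of 10 AP-1 target genes above the filter 7 were at least 2-fold higher and none lower (median 1.52), beside 16.5% and 8.41% of all genes. A further 5 of the 15 measured lay below the filter, and the median of all 15 was 1.02. The largest were the hyaluronan receptor gene Cd44 (3466 at day 15 and 30.1 in undifferentiated cells), the matrix gene Tnc (3538 at day 15 and 55.3 in undifferentiated cells), Ptgs2 and the chemokine gene Ccl2 (145.1 at day 15 and 27.0 in undifferentiated cells). Cd44, Ptgs2 and Ccl2 passed the filter with an undifferentiated signal below 35.6, which favours a difference. Beside the same shares of all genes, 7 of 10 EGR target genes above the filter were at least 2-fold higher and none lower. Their median was 1.496, and 1.35 over all 12 measured. They were led by the myelin gene Pmp22 (3626 at day 15 and 32.1 in undifferentiated cells, again below 35.6), which fibroblasts also express, the matrix gene Thbs1 (15.7-fold higher), the tissue factor gene F3 (5.39-fold) and the hindbrain gene Hoxb2 (5.41-fold). Many of these genes have other known inputs, and no binding was measured.

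**Figure D3:**
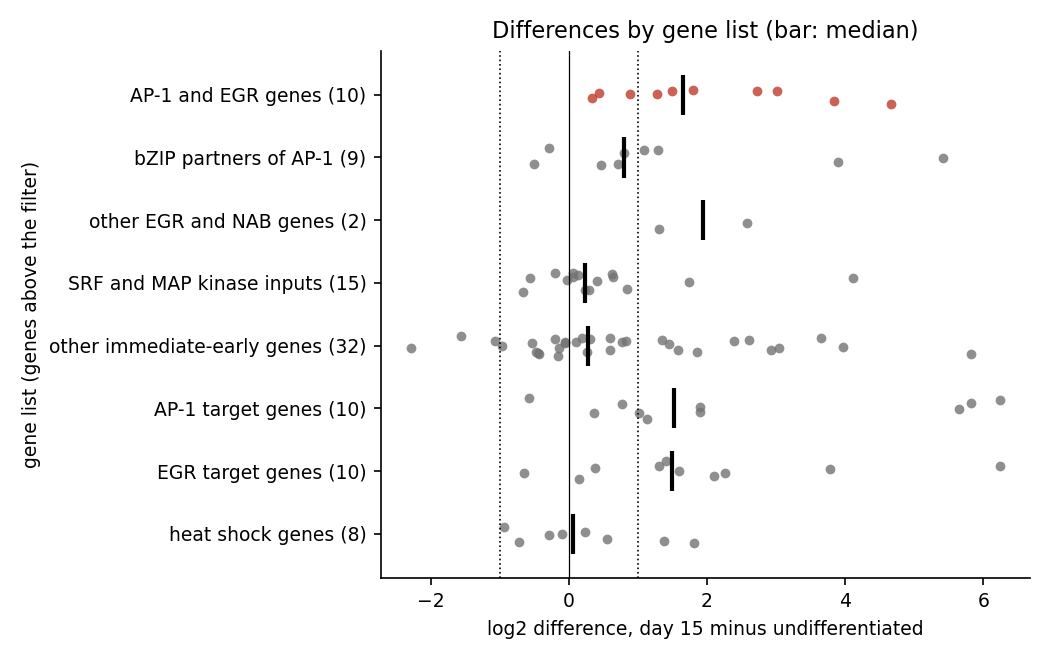
Log2 difference of day 15 minus undifferentiated (horizontal axis) for each gene above the filter in 8 gene lists (rows, with the number of genes), 1 point per gene, the median as a black bar and 2-fold as dotted lines. The AP-1 and EGR genes (red) have a median of 1.65, the AP-1 and EGR target lists have medians of 1.52 and 1.496, and the other immediate-early genes spread on both sides of 0.

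Marker lists of other cell types did not share a direction. Their members were counted without the expression filter. The summed signal was higher at day 15 in each list except the endothelial one, and the neural list was split by gene. Of 8 fibroblast markers, which feeders also express, 6 were at least 2-fold higher and their summed signal was 31703 at day 15 and 803 in undifferentiated cells. None was at 0, but Col1a1, Lum and Postn were below 35.6 in undifferentiated cells. The smooth muscle list had 4 of 5 members past 2-fold upwards (summed signal 19570 at day 15 and 757 in undifferentiated cells). Myh11 was below 35.6 on both arrays, and Cnn1 and Actg2 in undifferentiated cells only. Of 5 macrophage markers 3 were higher (574 at day 15 and 156 in undifferentiated cells), with Ptprc below 35.6 on both arrays. Tyrobp and C1qb were below 35.6 in undifferentiated cells only. The cardiac list (2049 at day 15 and 284 in undifferentiated cells) had 2 of 5 members past 2-fold upwards. Of these, Tnnt2 was below 35.6 in undifferentiated cells. The visceral endoderm list (1648 at day 15 and 208.5 in undifferentiated cells) had 3 of 5. All 3, Afp, Ttr and Apoa1, were below 35.6 in undifferentiated cells. Such a low starting signal favours a difference in each of these lists. Endothelial markers summed to 333 at day 15 and 412.5 in undifferentiated cells, with 1 of 5 past 2-fold upwards and 1 downwards. The upward one, Cdh5, lay below the filter (45.5 at day 15 and 11.7 in undifferentiated cells), as did Apoa1. Cdh5 and Apoa1 were named after their values were seen. Neural markers summed to 2063 at day 15 and 1668 in undifferentiated cells, with 2 of 5 past 2-fold upwards and 2 downwards, and Ncam1 alone made up 1344.5 of the day 15 sum and 131.1 of the undifferentiated sum. The part of these cell types in the AP-1 and EGR values was not tested. Of 8 heat shock genes, which handling stress can induce, 2 were at least 2-fold higher (Hspa1a, log2 difference 1.82, and Bag3, 1.38) and none lower. Among all genes above the filter these shares were 16.5% and 8.41%. The heat shock median of 0.065 became -0.32 with scaling on the hybridization controls, under which that of all genes was -0.36. Hsph1 was at -0.94 and Hspb1 at -0.72. The 3′ over 5′ signal ratio of the Actb control probe sets was 1.72 at day 15 and 2.34 in undifferentiated cells, and that of Gapdh was 0.817 at day 15 and 0.815 in undifferentiated cells.

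Processing changed the size of some of these differences more than others. Across the alternatives tried, Fos stayed between 3.45 and 3.99, Jun between 2.63 and 3.18 and Egr1 between 2.33 and 2.77 on the log2 scale. Atf3 lay between 1.06 and 1.73. Fosl2 ranged from 2.41 to 5.58, the widest span of the 10 genes.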

How the data were processed

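RNA of 2 samples, 1 at day 15 and 1 undifferentiated, was hybridised as biotinylated cRNA to Affymetrix arrays, per the labels' protocols. The deposited values are linear signal intensity per probe set, already scaled to a common level by the authors. The summarising software and genome build were not given in the sources used here. No detection calls came with the values, and the number of arrays limits precision. After 64 control probe sets were set aside, GEO's platform annotation gave each probe set its gene, and symbols were updated by gene identifier through the RefSeq table of GRCm38.p6. Signals were taken to log2(signal + 16), and genes with a mean at or above the median probe set were counted. Python 3.11.15, pandas 2.3.3 and numpy 2.4.6 were used. The members and gene lists were chosen with earlier results of these data known. The rule for named genes took all members, all other EGR and NAB genes, up to 4 genes per list with the largest absolute difference above the filter, and the 3 genes nearest to the member with the largest difference. Alternatives covered pseudocount, filter, probe set choice, scaling and size of call.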

Additional observations from a re-analysis of the deposited data

How the results depend on the processing

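The count of genes at least 2-fold higher was 7 of 10 as reported, beside 16.5% of all genes. With the filter at the 75th percentile it was 3 of 4 (all genes 13.0%), where the median was 2.86. A threshold of 4-fold gave 4 of 10 (all genes 6.54%) and one of 1.5-fold gave 8 of 10 (all genes 26.2%). Under the other alternatives the count ran from 5 of 7, with genes dimmer than 35.6 on an array left out, to 8 of 10, with a pseudocount of 1 (all genes 17.6%). For the 5 of 7, the share of all genes was not computed. It was 6 of 10 with scaling on the hybridization controls (all genes 11.3%). Chosen after seeing the data, the condition that every probe set above the filter pass 2-fold left 6, without Fosl2. How many of all genes meet this stricter condition was not computed, so the 6 has no matched share beside it. No gene was at least 2-fold lower under any alternative tried. Scaling on the hybridization controls turned 4 values below 0: Junb (-0.024) and the medians of the input genes (-0.089), the other immediate-early genes (-0.063) and the heat shock genes (-0.32). That scaling put the median of all genes at -0.36. The median of the NAB and other EGR genes was 1.31 without the filter. Of calls over all genes, 66.3% were higher at day 15 as deposited, 54.6% with quantile normalization and 37.7% with scaling on the hybridization controls. The causes of these changes were not tested. No paired analysis was possible because each condition has 1 array. Fosb, Egr2, Egr3 and Egr4 lie near the controls without target, which limits what can be said of them.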

Other observations

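The genes whose pair of signals lay nearest to that of Fosl2, by Euclidean distance between log2(signal + 16) values over the 2 arrays, were Pcdh7, a protocadherin gene (distance 0.16, 869.7 at day 15 and 16.6 in undifferentiated cells), Ctla2a, a cysteine protease inhibitor gene (0.16), and Gucy1b1, a soluble guanylate cyclase subunit gene (0.19), out of 11959 genes. Nearest to Fos, a comparison chosen after its values were seen, were Anxa3, an annexin gene (distance 0.044, 1999.7 at day 15 and 130 in undifferentiated cells), the gelatinase gene Mmp2 (0.10) and Vgll3, a TEAD cofactor gene (0.24). With 2 arrays this likeness describes a pair of levels and nothing of regulation.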
